A study of Equus caballus with 9 samples.

Results

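A total of 173 genes of the horse (Equus caballus) were read in every culture of primary tenocytes and were nearly absent from every culture of tenocytes derived from embryonic stem cells (ESCs). They were chosen from the 21689 gene identifiers of the count table by their counts alone: 50 or more in each of the 6 primary libraries and 3 or fewer in each of the 3 ESC-derived libraries. Their low values in ESC-derived cultures are therefore a property of the choice and are given as a description, with no test. The same minimum of 50 counts in each primary library was met by 10026 genes, of which the 173 are 1.73%.

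Tenocytes are the fibroblast-like cells of tendon, where they make and maintain a collagen-rich matrix between muscle and bone. Embryonic stem cells are pluripotent cells of the early embryo that can be led into many cell types in culture. TGF-β3 is a secreted growth factor of the transforming growth factor family, which acts in tendon formation in the embryo and is used to direct stem cells towards a tendon fate. A cell that reaches a fate in culture can differ from cells taken from the tissue in which genes are switched on, and genes read in one and not in the other mark such differences.

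Messenger RNA was sequenced from 3 lines of each origin (n = 3 each). The adult tenocytes came from horses aged 2 to 6 years and had been passaged 5, 6 and 4 times (replicates 1, 2 and 3). The fetal tenocytes were taken at days 319, 320 and 321 of gestation and had been passaged 6, 3 and 7 times. Both kinds of primary cell were grown in high-glucose medium with 10% serum and no added TGF-β3 is given for them. The ESC-derived tenocytes, at passages 22, 18 and 18, came from ESCs that had been kept on inactivated mouse fibroblasts with leukaemia inhibitory factor. Feeders and that factor were then withdrawn for 14 days, and TGF-β3 was added at 20 ng/ml to their medium, which held 15% serum. The ESC-derived and primary cultures thus differed in cell source, passage number, growth medium, share of serum, added TGF-β3 and contact with mouse cells, and these cannot be told apart. No genotype, breed or sex is given in the labels, and each line stands for 1 culture.

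Library totals ran from 20166695 to 23767636 counts. Adult replicate 1 stood apart: 34 genes reached 50 counts there while no further library held over 3, and the remaining libraries had 0 to 4 genes of that kind. The table gives Ensembl identifiers with no gene names, and 0 of them could be paired with a symbol through the RefSeq gene table used here. The roles of the 173 genes are therefore not described, tenocyte and other cell type markers could not be read as a check of the labels, and genes are shown by identifier.

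The 173 genes were genes of low to middle abundance in the primary cultures, which is partly set by the rule. Its limit of 3 counts in ESC-derived libraries holds at any primary level, so a more abundant gene must differ by a larger factor to be chosen. Levels are in CPM, the counts of a gene per 1000000 counts of its library, which are not corrected for gene length, so they are compared with other genes only as counts. The median CPM of a gene over the 6 primary libraries ran from 2.70 to 100.6, with a median of 10.3 and quartiles of 6.50 and 19.8. Over all 10026 genes with 50 counts or more in each primary library the median was 26.6 and the quartiles were 11.9 and 61.1. A median level of 20 to under 50 CPM was found in 37 of the genes, 10 to under 20 in 46, 5 to under 10 in 64 and under 5 in 21. The other 5 reached 50 CPM or more. A total of 1433 genes outside the group lay above its most abundant member, and 24 of the 173 lay above the median level of the 10026. The 10 most abundant members held 22.3% of the summed median level of all 173.

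Summed over the 173 genes, the primary libraries held 0.307%, 0.306% and 0.287% of their counts in fetal replicates 1, 2 and 3 and 0.262%, 0.265% and 0.306% in adult replicates 1, 2 and 3. On this scale adult replicates 1 and 2 were the lowest of the 6, but the order depended on the scaling. With TMM-scaled library sizes the shares were 0.344%, 0.316% and 0.291% in fetal replicates 1, 2 and 3 and 0.303%, 0.301% and 0.301% in adult replicates 1, 2 and 3, so that the adult libraries lay together within the fetal range. The median count per gene was 200 to 246 in a primary library and 1 in each ESC-derived library. The 3 ESC-derived libraries held 198, 188 and 139 counts of the group in all, or 8.94 CPM (exact 95% Poisson interval 7.74 to 10.3), 8.33 CPM (7.18 to 9.61) and 6.85 CPM (5.76 to 8.09). These intervals cover counting error only. By total counts the summed level was 2999 ± 116 CPM in fetal, 2778 ± 248 CPM in adult and 8.04 ± 1.07 CPM in ESC-derived cultures (SD, n = 3 each). In such bulk samples, fewer cells that express a gene and less RNA of it per cell cannot be told apart.

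**Figure D1:**
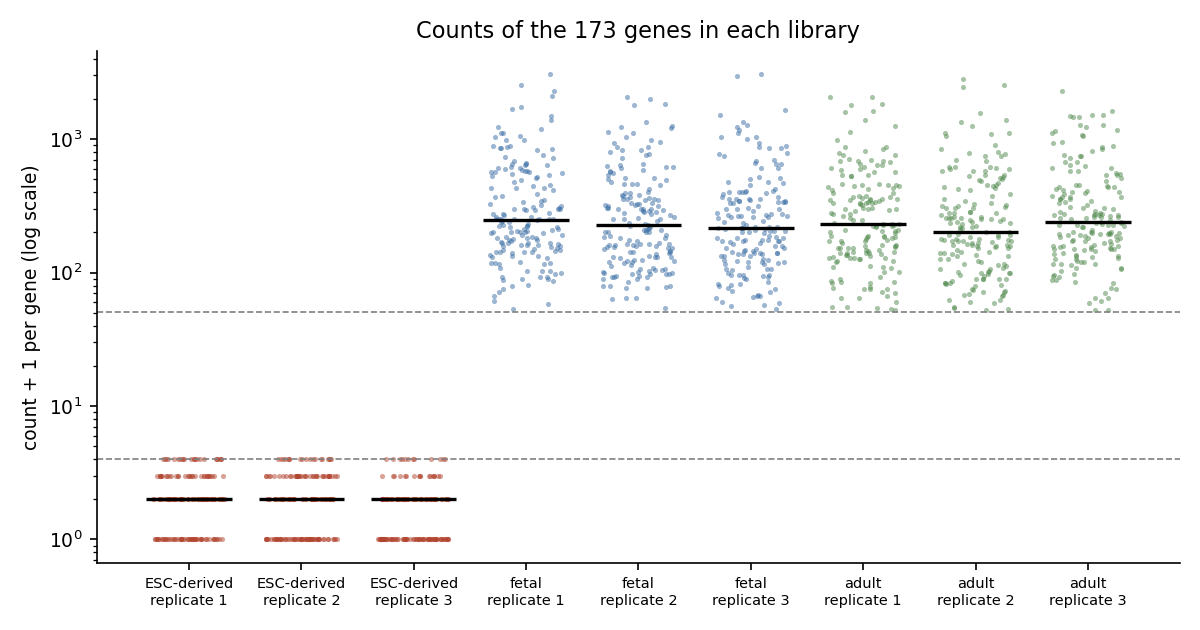
Count plus 1 (log scale) of each of the 173 genes in each of the 9 libraries, coloured by origin, with the median of each library as a black bar and the limits of 50 and 3 counts as dashed lines. By the rule no gene lies between the lines, and median counts are 200 to 246 in primary libraries and 1 in ESC-derived ones.

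Nearly all of the genes had some counts in the ESC-derived libraries, so "silent" is not meant here as a count of 0. Whether these few reads came from the ESC-derived cells was not tested. Over the 3 ESC-derived libraries together, 11 genes had no count, 30 had 1, 32 had 2, 32 had 3 and the other 68 had 4 to 9. In all 3 ESC-derived libraries 49 genes had at least 1 count, 70 were at 0 in 1 library and 43 were at 0 in 2. Genes at 0 numbered 52, 62 and 75 in ESC-derived replicates 1, 2 and 3. These residual counts came to 525 in all, with a median of 3 per gene. They were spread over abundant and less abundant members: the 58 genes highest in primary cultures held 217 of them, the middle 58 held 168 and the lowest 57 held 140. The primary counts of the same sets were 247920, 87524 and 45986. Across the 173 genes, primary level and residual counts had a Spearman rho of 0.29, a description over genes that share their libraries and whose residual counts the rule limits.

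The ratio of pooled CPM in the 6 primary libraries to that in the ESC-derived group ran from 50.3 to 1916, where the 11 genes without ESC-derived counts were set at 3 counts over the 3 libraries, which makes theirs a lower bound. The median ratio was 291, and it was 100 or more for 157 genes and 1000 or more for 11. Against adult cultures alone the median ratio was 290 and the range 42.5 to 2046, and against fetal cultures it was 293 and 54.7 to 2028. The lower end of the exact 95% counting interval was lowest at 17.9 for adult and 23.2 for fetal cultures. By edgeR, all 173 genes were called lower in ESC-derived than in adult cultures, where 30% of the 13462 genes tested were, and all 173 were called lower than in fetal cultures, where 29.9% were. The rule used these contrasts, which share the ESC-derived libraries, so nothing is read from those counts.

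Genes lay on both sides of the limit of 3 counts, with fewer just above it than just below. Among the 10026 genes with 50 counts or more in each primary library, the highest count in any ESC-derived library was 0 for 11 genes, 1 for 58, 2 for 57 and 3 for 47. It was 4 for 27 genes, 5 for 29 and 6 for 26. Per single count there were a mean of 22.7 genes from 4 to 10 counts and 12.8 from 11 to 20. Just inside, the 47 genes that reached 3 counts had a median primary level of 16.4 CPM, and just outside, the 27 genes that reached 4 had one of 13.2 CPM. On the primary side, 20 members had a lowest primary count of 50 to 59, and 16 genes with 3 or fewer counts in each ESC-derived library missed the rule with a lowest primary count of 40 to 49. The lowest primary count of a member was 51. No count from 0 to 20 was without genes, so the limits chosen set the size of the group.

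**Figure D2:**
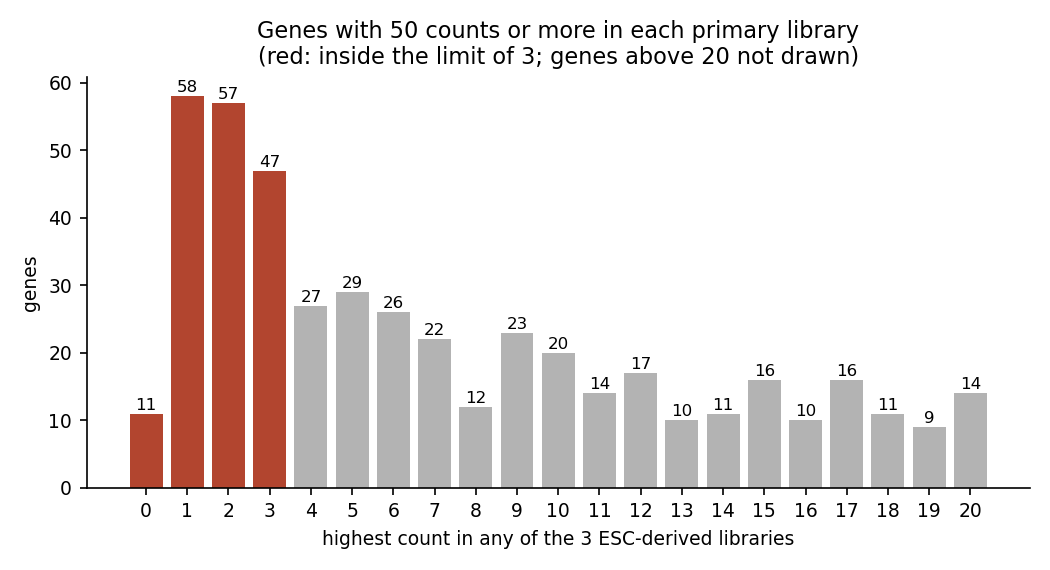
Number of genes with 50 counts or more in each primary library, by their highest count in any of the 3 ESC-derived libraries; red bars are the 173 genes inside the limit of 3, and genes above 20 counts are not drawn. The bars fall from 47 genes at 3 counts to 27 at 4 and unevenly from there to 20 at 10, and no count from 0 to 20 is empty.

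To measure how far the pattern held in a line that played no part in the choice, the rule was applied to 8 libraries and the genes so chosen were read in the one left out. Without ESC-derived replicate 1, 211 genes were chosen, and 173 of them (82.0%, exact 95% binomial interval 76.1% to 86.9%) had 3 counts or fewer in that library. The shares for ESC-derived replicates 2 and 3 were 85.6% of 202 genes (80.0% to 90.2%) and 90.1% of 192 genes (85.0% to 93.9%). Over all 10026 genes with 50 counts or more in each primary library, 2.38%, 2.70% and 3.31% were at 3 counts or fewer in these libraries. The intervals cover counting over genes that were all read in 1 library and are not independent, so they do not say how the share would vary between lines. Among genes with 50 counts or more in each primary library, those low in 2 of the ESC-derived lines were thus mostly low in the third as well. The 3 shares count the same 173 genes, so they are not separate results.

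Those that missed the limit mostly missed it narrowly. In ESC-derived replicate 1 the 38 genes above the limit had 4 to 42 counts with a median of 6, and 30 of them had 10 or fewer. In ESC-derived replicate 3 the 19 such genes had 4 to 22 counts, 16 of them 10 or fewer. ESC-derived replicate 2 differed in its top values: of its 29 genes above the limit, 21 had 10 counts or fewer and 3 had 50 or more, up to 329. Those 3 genes had 50 counts or more in all 6 primary lines and in 1 ESC-derived line, and they are not among the 173.

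At these limits the primary lines gave shares of 90.6% to 99.4%, above the 3 ESC-derived ones, though adult replicate 1 lay close to ESC-derived replicate 3. The shares rest on unlike limits, 50 counts or more against 3 or fewer, so their order does not say which lines are steadier. With a limit of 10 counts for ESC-derived libraries the shares overlapped, at 84.3% to 93.8% in ESC-derived and 93.0% to 99.1% in primary lines. The genes chosen without a fetal library reached 50 counts in it in 97.7% of 177 cases for fetal replicate 1, 99.4% of 174 for replicate 2 and 94.0% of 184 for replicate 3. For adult replicates 1, 2 and 3 the shares were 90.6% of 191, 93.5% of 185 and 98.9% of 175. Of all 7371 genes with 3 counts or fewer in each ESC-derived library, 3.45% to 4.54% had 50 or more in a given primary library. Many of the 7371 were not read in primary cultures at all, and over the 2710 of them with at least 1 primary count the share was 9.37% to 12.4%. Adult replicate 1 missed the most genes, 18, with 1 to 44 counts and a median of 22.5, and 4 of these had 10 counts or fewer. Fetal replicate 3 missed 11 genes, at 7 to 46 counts, and adult replicate 2 missed 12, at 11 to 48.

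**Figure D3:**
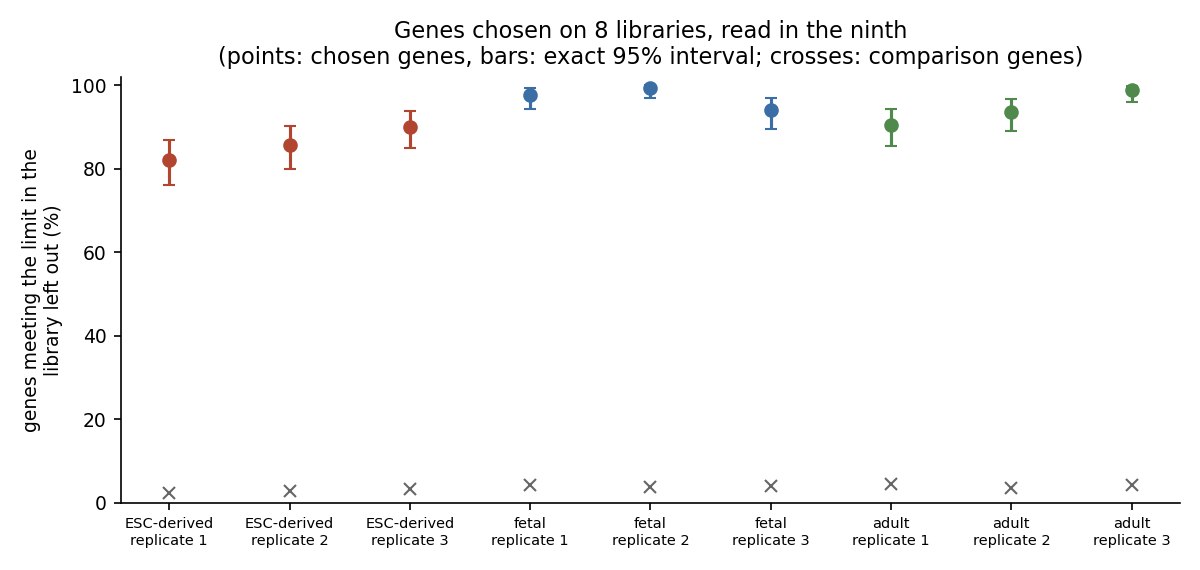
Percentage of genes chosen on 8 libraries that also met the limit in the library left out (3 counts or fewer in ESC-derived, 50 or more in primary libraries), with exact 95% binomial intervals over genes that share that library; crosses show the same percentage over the comparison genes of each kind. The shares are 82.0% to 90.1% in ESC-derived and 90.6% to 99.4% in primary libraries, against crosses at 2.38% to 4.54%.

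None of the 173 genes passed the test between fetal and adult cultures. The comparison asks whether genes of primary tenocytes that are nearly absent from ESC-derived cells depend on the age of the donor, and the rule treated the 6 primary libraries alike. All 173 genes passed the filter on low counts, and 0 had an edgeR adjusted p under 0.05, as for all 13462 genes tested (0%). The lowest adjusted p was 0.871. DESeq2, which called 53 of all genes tested (0.394%), and limma-voom, which called 0 (0%), each called 0 of the 173. By edgeR, 14 genes (8.09%) had an unadjusted p under 0.05, 9 higher and 5 lower in fetal cultures, against 4.32% of all genes tested and 2.38% of the 10026. That count was 24 (13.9%) by DESeq2, against 5.24% of all genes in the same fit, and 26 (15.0%) by limma-voom, against 3.93%. It was 23 (13.3%) by edgeR without adult replicate 3, against 6.89%. In 18 genes (10.4%) the fetal and adult libraries did not overlap, 11 higher in each fetal and 7 higher in each adult library. Over all genes tested the share without overlap was 7.09% (4.58% higher in fetal, 2.52% higher in adult libraries), and over the 10026 it was 5.75%.

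Directions were balanced. The median log2 fold change of fetal against adult cultures was 0.04 over the 173 genes and 0.00 over all genes tested, and it was positive for 91 of the 173. It ran from -1.70 to 1.99, and 8 genes were at least 2-fold higher and 8 at least 2-fold lower in fetal cultures by the fitted value. Together these were 9.25% of the 173, close to the 8.13% of all genes tested, while the share of the 10026 was 1.42%. The median absolute log2 difference was 0.34, against 0.17 over all genes tested and 0.13 over the 10026. The median standard error of these values was 0.41 for the 173 genes and 0.28 for all genes tested, so differences and errors were both wider in the group. The share of library counts held by the 173 genes was 0.300% ± 0.0116 in fetal and 0.278% ± 0.0248 in adult cultures (SD, n = 3 each). The exact permutation test, two-sided, gave p = 0.3, where 3 against 3 libraries cannot go below 0.1. The difference, 0.0221 percentage points by total counts, was 0.0150 with TMM-scaled sizes (0.317% ± 0.0268 and 0.302% ± 0.00148, SD, n = 3 each, exact permutation p = 0.4) and 0.00994 without the 10 most abundant members. Over the 6 primary lines the summed level by total counts had r = -0.40 with passage number (exact permutation p = 0.467) and rho = -0.14 (exact permutation p = 0.778), a single relation. Without fetal replicates 2 and 3, the lines farthest from the median passage, r was -0.27.

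The median spread from one primary line to another was wider over the 173 genes than over other genes of the same level. The standard deviation of log2 CPM over the 6 primary libraries had a median of 0.57 over the 173 genes, with quartiles of 0.40 and 0.77. Over the other 9853 genes with 50 counts or more in each primary library the median was 0.27, and 162 of the 173 lay above it. The rule did not choose on this spread, but its minimum of 50 counts, which the other genes also meet, limits how far a line can fall. The spread is described over genes that share the same 6 libraries and is given with no test. The highest primary library stood a median of 2.79-fold above the lowest, against 1.64-fold over the 10026. In 46 genes (26.6%) this range was 4-fold or more, against 5.59% of the 10026, and in 8 genes it was 10-fold or more. In 35 genes (20.2%) it was under 2-fold, against 69.8%.

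Lower counts carry more counting error, so the spread was also read within classes of level. At a median primary level of 5 to 10 CPM, the median standard deviation was 0.58 for 64 members and 0.35 for 1423 other genes. At 10 to 20 CPM it was 0.61 for 46 members and 0.29 for 1993 others, and at 20 to 50 CPM it was 0.58 for 37 and 0.25 for 2896. Below 5 CPM it was 0.48 for 21 members against 0.37 for 530 others, the narrowest difference. The minimum of 50 counts, which the other genes meet too, lies closest to the levels of that class. Whether it bears on the narrower difference was not tested. At 50 CPM or more there were only 5 members, with a median of 0.91 against 0.22. Below 20 CPM the lower quartile of members lay under the upper quartile of the other genes, and from 20 CPM upwards it lay above it. The median of members was higher in all 5 classes of level with any 1 primary library left out. Within the 3 fetal libraries alone the medians were 0.46 and 0.25, and within the 3 adult libraries alone 0.53 and 0.25. The spread was therefore present among lines of the same age group.

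**Figure D4:**
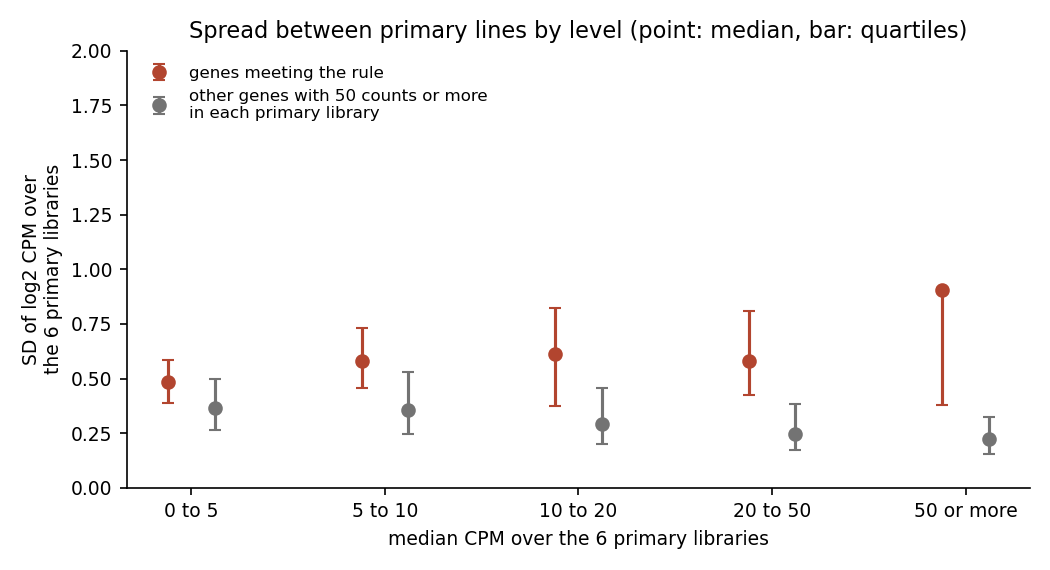
Standard deviation of log2 CPM over the 6 primary libraries by class of median primary CPM, for the 173 genes (red) and the other 9853 genes with 50 counts or more in each primary library (grey), with points at medians and bars between quartiles. The red median lies above the grey one in each of the 5 classes, from 0.48 against 0.37 below 5 CPM to 0.91 against 0.22 at 50 CPM or more, where there are 5 red genes.

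The spread came from all 6 lines. A library was set against the median of the other 5 for each gene, and the genes at least 2-fold away were counted. The shares are not matched for level, and the 173 genes had lower levels than the 10026 (medians of 10.3 and 26.6 CPM). Adult replicate 1 departed in 25.4% of the 173 genes, with 18 above and 26 below, where 7.58% of the 10026 did so (154 above, 606 below). Fetal replicate 3 departed in 22.5% (16 above, 23 below), against 6.98% of the 10026 (526 above, 174 below). Adult replicate 2 departed in 20.8%, with 26 genes below and 10 above, against 3.07% (64 above, 244 below). By total counts, adult replicates 1 and 2 thus leaned low over the 10026 as well, whereas fetal replicate 3 leaned high there. The other lines departed in 14.5% (fetal replicate 1), 11.0% (fetal replicate 2) and 13.9% (adult replicate 3), against 3.87%, 1.64% and 6.23%. By total counts, genes were lowest in adult replicate 2 in 44 cases, adult replicate 1 in 42 and fetal replicate 3 in 41. They were highest in fetal replicate 3 in 39, adult replicate 3 in 35 and adult replicate 1 in 33. This order was not counted over the 10026, so it is not read as particular to the 173.

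Single genes show the extremes. They were taken by a rule on level, spread and fetal-adult difference, and their values in ESC-derived cultures are part of the choice of the 173. ENSECAG00000012863 was the most abundant, with a median of 100.6 CPM over the primary libraries. Its counts were 2304, 2073 and 3059 in fetal replicates 1, 2 and 3 and 1263, 574 and 2306 in adult replicates 1, 2 and 3. In ESC-derived replicates 1, 2 and 3 it had 1, 1 and 3 counts. Adult replicates 1 and 2 lay below all fetal libraries, whereas adult replicate 3, at 107 CPM, lay among the fetal ones at 98.3 to 145 CPM. The log2 fold change of fetal against adult cultures was 0.89 ± 0.40 (SE) with an edgeR adjusted p of 1. It was 0.53 without adult replicate 2 and 1.40 without adult replicate 3. Pooled over libraries, the gene was 1138-fold lower in ESC-derived than in primary cultures (95% counting interval 488 to 3506).

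ENSECAG00000000239 had the widest spread between primary lines. It had 836, 1262 and 2989 counts in the fetal libraries, 51, 138 and 1280 in the adult ones, and 1, 3 and 1 in the ESC-derived ones. In CPM the primary values ran from 2.15 in adult replicate 1 to 142 in fetal replicate 3, a 66.1-fold range. Adult replicates 1 and 2 were at 2.15 and 6.16 CPM while adult replicate 3, at 59.7 CPM, was close to fetal replicate 2 at 62.6 CPM, so the age groups overlapped. The log2 fold change of fetal against adult cultures was 1.86 ± 0.97 (SE), with an edgeR adjusted p of 1. Without adult replicate 3 it was 4.11 ± 0.69 (SE), still with an edgeR adjusted p of 0.303. Its 51 counts in adult replicate 1 lay just above the limit of the rule.

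ENSECAG00000022277 was the steadiest of the 173 between primary lines. Its counts were 443, 358 and 476 in fetal and 463, 418 and 436 in adult libraries, or 17.8 to 22.6 CPM, a 1.27-fold range. In the ESC-derived libraries it had 2, 2 and 0 counts. Fetal and adult levels, at 19.7 ± 2.53 and 19.5 ± 0.825 CPM (SD, n = 3 each), lay among each other. The fitted fetal against adult difference on the log2 scale was -0.03 ± 0.27 (SE), at an edgeR adjusted p of 1. The sign of so small a value turned with total counts as the scaling. The gene was 319-fold lower in ESC-derived than in primary cultures (95% counting interval 124 to 1171).

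ENSECAG00000006470 had the largest fitted difference between fetal and adult lines among the genes whose libraries did not overlap. It stood at 27.5, 18.8 and 31.6 CPM in fetal replicates 1, 2 and 3, at 3.20, 7.64 and 17.2 CPM in adult replicates 1, 2 and 3, and at 0, 3 and 3 counts in ESC-derived replicates 1, 2 and 3. Each fetal library was above each adult one, but the nearest pair, fetal replicate 2 and adult replicate 3, were close. The log2 fold change was 1.49 ± 0.54 (SE) with an unadjusted p of 0.0221 and an edgeR adjusted p of 1. It was 1.10 without adult replicate 1 and 2.13 without adult replicate 3. This gene held a fractional count, so some of its reads may be shared with another gene.

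**Figure D5:**
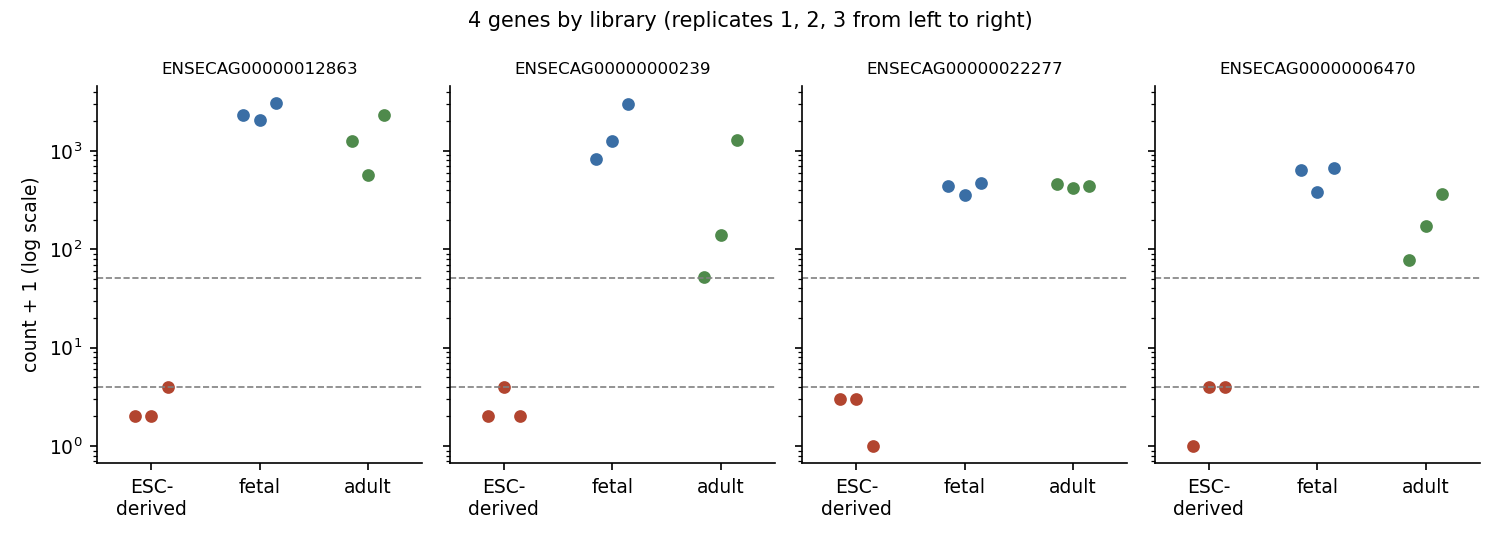
Count plus 1 (log scale) of 4 genes in each library, with replicates 1, 2 and 3 from left to right in each group and the limits of 50 and 3 counts as dashed lines. ENSECAG00000022277 lies at 358 to 476 counts in all primary libraries, whereas ENSECAG00000000239 runs from 51 counts in adult replicate 1 to 2989 in fetal replicate 3.

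A fractional count, which can arise when reads are divided between similar transcripts, was found in at least 1 library for 27 of the 173 genes (15.6%), against 25.8% of the 10026. In an ESC-derived library 1 of the 173 had one. The other 146 genes held whole counts in every library, and whether their reads were shared was not tested.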

How the data were processed

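The authors deposited 1 table of estimated counts per Ensembl gene identifier, in which 4042 genes hold a fractional value. Salmon, FastQC and R 3.5.2 are named in the submitters' processing notes. Settings, genome build and annotation: not given in the sources used here. The kit was a stranded one for mRNA, with reads in pairs of 100 bases, per the labels' protocols. The members, lists and tests were chosen with earlier results of these data known.

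Counts were rounded to whole numbers, and CPM used the total of each library. The filter (filterByExpr), TMM scaling and quasi-likelihood test of edgeR 4.0.16 in R 4.3.3 were run in 1 fit of group means over all 9 libraries, with Benjamini-Hochberg adjustment over all 13462 genes tested and a threshold of 0.05. The procedure was tested on simulated data. Standard errors were derived from the F statistic. DESeq2 1.42.0 and limma 3.58.1 with voom were alternatives. Exact tests and intervals used scipy 1.17.1. Intervals and the floor of 3 counts cover counting error only, since reads carry no molecular identifiers.

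No library repeated another: replicates compared in pairs gave chi-square values of 62.0 to 160 for each degree of freedom. The series text calls the lines independent, and p-values measure the spread between these lines. The rule for single genes took the member with the highest median primary CPM, those with the widest and narrowest spread, and that with the largest fetal-adult difference without overlap. The 18 gene lists prepared for this comparison could not be read, since 0 identifiers were matched to a symbol; 0 were tested. No sequences or coordinates are shown.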

Additional observations from a re-analysis of the deposited data

How the results depend on the processing

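The number of genes that met the rule followed its limits, since these define it: 11 at a limit of 0 counts in ESC-derived libraries, 332 at 10, and 104 with at least 100 counts in primary libraries, against 173. With 1 library left out at a time it was 174 to 211. In ESC-derived replicate 2, 93.8% of the genes chosen without it met a limit of 10 counts, against 85.6% at 3, which placed it above fetal replicate 3 (93.3%) and adult replicate 1 (93.0%). Calls between ESC-derived and primary cultures are fixed by the choice of genes and say nothing on stability; a filter of 5 CPM in 3 libraries kept 158 of the 173. Between fetal and adult cultures 0 of the 173 were called in any of 17 alternatives (RLE scaling, total counts, DESeq2, limma-voom, other filters, the 6 libraries alone, passage as a covariate, and each library left out). Over all genes DESeq2 called 53, and 1 was called in each of 3 fits: the 6 libraries alone, without ESC-derived replicate 3 and without fetal replicate 3. The count at an unadjusted p under 0.05, 14, was 24 by DESeq2 and 26 by limma-voom, and 10 to 23 with 1 library left out; the cause was not tested. The log2 fold change of ENSECAG00000022277 turned from -0.03 to 0.019 with total counts and ranged from -0.11 to 0.053 with 1 library left out, positive without adult replicate 1 (0.014) or fetal replicate 2 (0.053). The fetal minus adult share of counts was 0.0142 to 0.0364 percentage points with 1 primary library left out, 0.0150 on TMM-scaled sizes and 0.00994 without the 10 most abundant members, against 0.0221. The median spread between primary lines was 0.54 to 0.59 with 1 left out; leaving out lines for the spread, its values within fetal and within adult lines, and the count without overlap on TMM-scaled sizes (20 against 18) were added after seeing the data. No paired analysis was possible because the labels give no replicate numbers that tie lines across groups. Depth limits the ESC-derived side, where 105 of the 173 genes had 3 counts or fewer over the group.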
